A study of Mus musculus with 8 samples.

Results

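The MHC class I presentation genes of mouse osteoclast precursor cells were described across the 4 culture conditions of this RNA sequencing experiment. The set holds 10 genes named by their symbols, *H2-K1*, *H2-D1*, *B2m*, *Tap1*, *Tap2*, *Tapbp*, *Psmb8*, *Psmb9*, *Nlrc5* and *H2-M2*, and each was found once among the 25124 genes of the expression table. Osteoclast precursor (OCP) cells are bone marrow macrophages that can become bone-resorbing osteoclasts. They were grown from bone marrow flushed from the leg bones of C57BL/6 mice aged 6 to 8 weeks per the labels, while the cell culture methods of the study name ICR mice, and which of the strains gave these libraries could not be told apart here. All cultures received M-CSF, the growth factor of macrophages, at 30 ng/ml. PRDX1, a peroxide-reducing enzyme given here from outside the cell as a His-tagged protein made in *Escherichia coli* and passed over an endotoxin removal resin, was used at 200 nM. RANKL, the cytokine that drives osteoclast formation, was used at 100 ng/ml. The 4 groups were no PRDX1 + no RANKL, PRDX1 + no RANKL, no PRDX1 + RANKL and PRDX1 + RANKL, with 2 libraries each, and RNA was taken after 48 h. Nothing in the labels says whether the 2 libraries of a group came from separate animals, so the p-values below measure the spread between these libraries, which may be technical.

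MHC class I molecules show peptides from inside the cell to CD8 T cells. A heavy chain (H2-K1 or H2-D1 in these mice) pairs with beta-2 microglobulin, the product of *B2m*, in the endoplasmic reticulum. Peptides are cut in the cytosol by the proteasome, in which the immunoproteasome subunits encoded by *Psmb8* and *Psmb9* can replace constitutive ones, are pumped into the endoplasmic reticulum by the TAP1 and TAP2 transporter, and are loaded with the help of tapasin, the product of *Tapbp*. NLRC5 is a transcriptional coactivator of these genes, and interferons and NF-kB are their best known inducers. *H2-M2* encodes a nonclassical class I chain.

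The libraries held 27284653 to 46171820 reads. The values are FPKM (fragments per kilobase of transcript, scaled to the reads of the library), a level per transcript length, so that levels of different genes can be set side by side. All 8 markers of macrophages were at 0.5 FPKM or more in every group. The 8 osteoclast markers summed to 32.4 to 33.5 FPKM in no PRDX1 + no RANKL, 79.7 to 84.1 in PRDX1 + no RANKL, 1813 to 1909 in no PRDX1 + RANKL and 234 to 241 in PRDX1 + RANKL. Sums of markers of other cells moved with PRDX1 as well, though the markers of a list did not all move together. The 6 neutrophil markers summed to 7.50 to 11.6 FPKM without and 38.1 to 41.8 FPKM with PRDX1 in cultures lacking RANKL, and to 15.5 to 15.7 and 33.2 to 36.1 FPKM in cultures given RANKL. *S100a8* and *S100a9* made up most of these sums, *Mpo* was called higher with PRDX1 without and with RANKL (log2 fold changes 0.63 and 0.74) and *Elane* without RANKL (0.83), and *Ly6g*, a defining marker, had means of 0.063 FPKM in no PRDX1 + no RANKL and 0.233 in PRDX1 + no RANKL, and of 0.095 and 0.0615 in the groups with RANKL. The 7 dendritic cell markers went from 2.36 to 2.96 FPKM to 4.13 to 4.34 FPKM with PRDX1 in the absence of RANKL and from 2.79 to 3.19 FPKM to 5.09 to 6.18 FPKM in its presence. *Ccr7* and *Siglech* carried most of this, from means of 0.060 and 0.742 FPKM to 0.9965 and 1.779 without RANKL. *Cd209a* went the other way, from 1.247 to 0.6015 FPKM without RANKL and from 0.5445 to 0.4595 with it. *Xcr1* was also lower with PRDX1 in cultures given RANKL (0.060 beside 0.0995 FPKM). The 5 stromal markers went from 8.33 to 11.03 FPKM to 17.0 to 17.3 FPKM, and from 8.38 to 10.3 FPKM to 15.8 to 19.6 FPKM. *Col1a1* and *Col1a2* made up most of these sums. Without RANKL, *Runx2* had means of 0.7885 FPKM without and 0.7805 with PRDX1, and *Pdgfrb* 0.4225 and 0.446. Low sums were also higher with PRDX1. The 4 endothelial markers, with *Emcn* at 0 throughout, went from 1.64 to 1.74 FPKM to 2.57 to 2.73 FPKM without RANKL and from 3.42 to 3.76 FPKM to 4.94 to 5.41 FPKM with it. *Kdr* carried most of this, with means of 1.07 and 2.03 FPKM without RANKL and 3.44 and 4.77 with it. *Tie1* was lower with PRDX1 in the absence of RANKL (0.136 beside 0.2095 FPKM). The 5 B cell markers went from 0.589 to 0.976 FPKM to 1.59 to 2.13 FPKM, and from 0.631 to 0.922 FPKM to 1.37 to 1.61 FPKM. The 8 T and NK cell markers went from 0.417 to 0.809 FPKM to 0.956 to 1.01 FPKM, and from 0.752 to 0.942 FPKM to 1.31 to 1.41 FPKM. Most of these sums was *Cd4*, not called with PRDX1, with means of 0.519 and 0.872 FPKM without RANKL and 0.8165 and 1.245 with it. *Cd3e*, *Ncr1* and *Ifng*, which encodes interferon gamma, were at 0 in all 8 libraries. The part of these cells in the results below was not tested, and in bulk cultures a different number of cells of one kind and a different amount of RNA per cell cannot be told apart.

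On mm10, the build of the table, *B2m* lies on chromosome 2 (chr2:122147687-122153082, plus strand) and *Nlrc5* on chromosome 8 (chr8:94472763-94527272, plus strand), whereas the other 8 lie on chromosome 17, in the mouse MHC. *H2-K1* (chr17:33996012-34000333, minus strand) and *Tapbp* (chr17:33919478-33929290, plus strand) lie at one end of it. *Psmb9* (chr17:34182099-34187330, minus strand), *Tap1* (chr17:34187556-34197225, plus strand), *Psmb8* (chr17:34198195-34201454, plus strand) and *Tap2* (chr17:34204479-34216321, plus strand) follow each other within 34223 bases. The start sites of *Psmb9* and *Tap1* are 225 bases apart and face away from each other. *H2-D1* (chr17:35263094-35267497, plus strand) and *H2-M2* (chr17:37480851-37483554, minus strand) lie farther along. All 10 are protein-coding genes in GENCODE and the values cover their exons.

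RefSeq promoter windows (GRCm38.p6, 250 bases before to 50 after the start) were at hand for 8 of the 10 genes, all but *Tap2* and *Nlrc5*. They were searched on both strands for the NF-kB letters (GGG, NN, TT, N and CC in a run, N being any base), the interferon response letters (GAAA, NN and GAAA in a run), the CCAAT box and TGACG, letters found in the X2 box of class I promoters and in cyclic AMP response elements. The 180 bases before the start are shown for the heavy chains and *B2m*, the genes whose products form the class I molecule, with matches to any of the 4 motifs in capitals, on chr17:34000334-34000513 (minus strand), chr17:35262914-35263093 (plus strand) and chr2:122147507-122147686 (plus strand).
H2-K1: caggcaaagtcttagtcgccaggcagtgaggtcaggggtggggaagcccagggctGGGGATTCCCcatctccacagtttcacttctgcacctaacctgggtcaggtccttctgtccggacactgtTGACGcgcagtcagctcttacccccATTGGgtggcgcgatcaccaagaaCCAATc
H2-D1: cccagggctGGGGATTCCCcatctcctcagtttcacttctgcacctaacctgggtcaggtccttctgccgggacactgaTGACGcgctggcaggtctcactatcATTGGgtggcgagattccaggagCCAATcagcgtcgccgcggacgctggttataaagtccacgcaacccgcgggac
B2m: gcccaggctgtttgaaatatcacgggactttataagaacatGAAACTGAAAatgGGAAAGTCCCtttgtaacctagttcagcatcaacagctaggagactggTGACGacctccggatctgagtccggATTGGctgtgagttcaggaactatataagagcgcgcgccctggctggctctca

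The NF-kB letters occurred in these 3 genes and in none of the other 5 windows, against 4.79% of the 32851 promoter windows of the genome. They stood at -125 to -116 in *H2-K1* and at -171 to -162 in *H2-D1*, counted from the start site, in the identical form GGGGATTCCC, and at -126 to -117 on the opposite strand in *B2m*. The interferon letters were found only in *B2m*, at -139 to -130, next to its NF-kB letters (3.44% of all windows). Only this exact string was searched for, so *H2-K1*, *H2-D1* and the other windows may hold interferon elements in other letters. TGACG occurred in 20.8% and CCAAT in 37.4% of all windows. In all 3 genes TGACG was followed by the reverse complement of CCAAT, with 25 bases from the first letter of one to the first letter of the other, a spacing noticed in the matches and then searched for, and found in 31 of all windows (0.0944%). *Psmb8* held none of the 4 motifs in its window. A match is a string of letters, not a bound site. A window without a match can still hold a form of an element that departs from the letters searched. The *H2-M2* window, for example, holds GGGGAATTCC, which is close to the NF-kB letters but not a match.

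**Figure D1:**
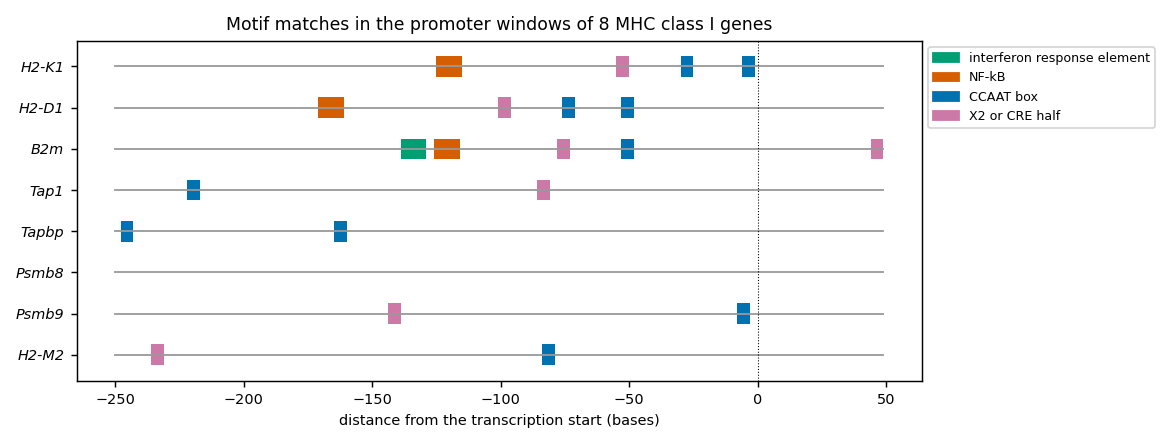
Motif matches in the promoter windows of the 8 genes with a RefSeq window, drawn by distance from the transcription start in bases, with each window as a grey line. Coloured boxes mark the NF-kB letters, the interferon response letters, CCAAT and TGACG on either strand, and NF-kB letters are seen in *H2-K1*, *H2-D1* and *B2m* only. Forms of these elements with other letters were not searched for.

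The first question was how PRDX1 moved the class I genes in the presence of M-CSF alone. Differences were tested with limma on log2(FPKM + 1) over the 11700 genes with a mean of at least 0.5 FPKM, and a gene was called at a Benjamini-Hochberg adjusted p below 0.05 with a change of at least 1.5-fold. All 10 genes passed the level filter, *H2-M2* through its treated groups. *H2-M2* is therefore left out of the counts here, a step taken after its values were seen, and is described below. PRDX1 raised 4 of the other 9 without RANKL, *H2-K1*, *H2-D1*, *B2m* and *Tap1*, while 3.8% of all genes were called higher and 1.99% lower (5.79% in either direction). With RANKL present PRDX1 raised 6 of the 9, those 4 and *Tapbp* and *Nlrc5*, against 6.03% of all genes called higher and 4.17% lower (10.2% in either direction). None was called lower. Both PRDX1 libraries lay above both libraries without PRDX1 for 9 of the 9 genes without RANKL (26.1% of all genes) and for 8 with RANKL (27.9%), the exception being *Tap2*. The median log2 fold change of the 9 was 0.43 and 0.73, beside -0.04 and -0.06 for all genes.

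RANKL without PRDX1 raised 1 of the 9, *Tap2*, against 11.8% of all genes called higher and 9.96% lower (21.8% in either direction), a balance that turned to 1312 higher and 1693 lower from 1383 and 1165 when limma-voom was run on reads recovered from the table. With PRDX1 present it raised 0 of the 9 by limma and by limma-voom, while 4.52% of all genes were called higher, 3.98% lower and 8.5% in either direction (597 and 807 genes with limma-voom beside 529 and 466). At an unadjusted p below 0.05 there were 7 of the 9 and 49.2% of all genes. Both RANKL libraries were above both libraries lacking it for 6 of the 9 genes without PRDX1 (47.7% of all genes) and for 9 with it (47.3%). The comparisons share groups of libraries and are not independent of each other.

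**Figure D2:**
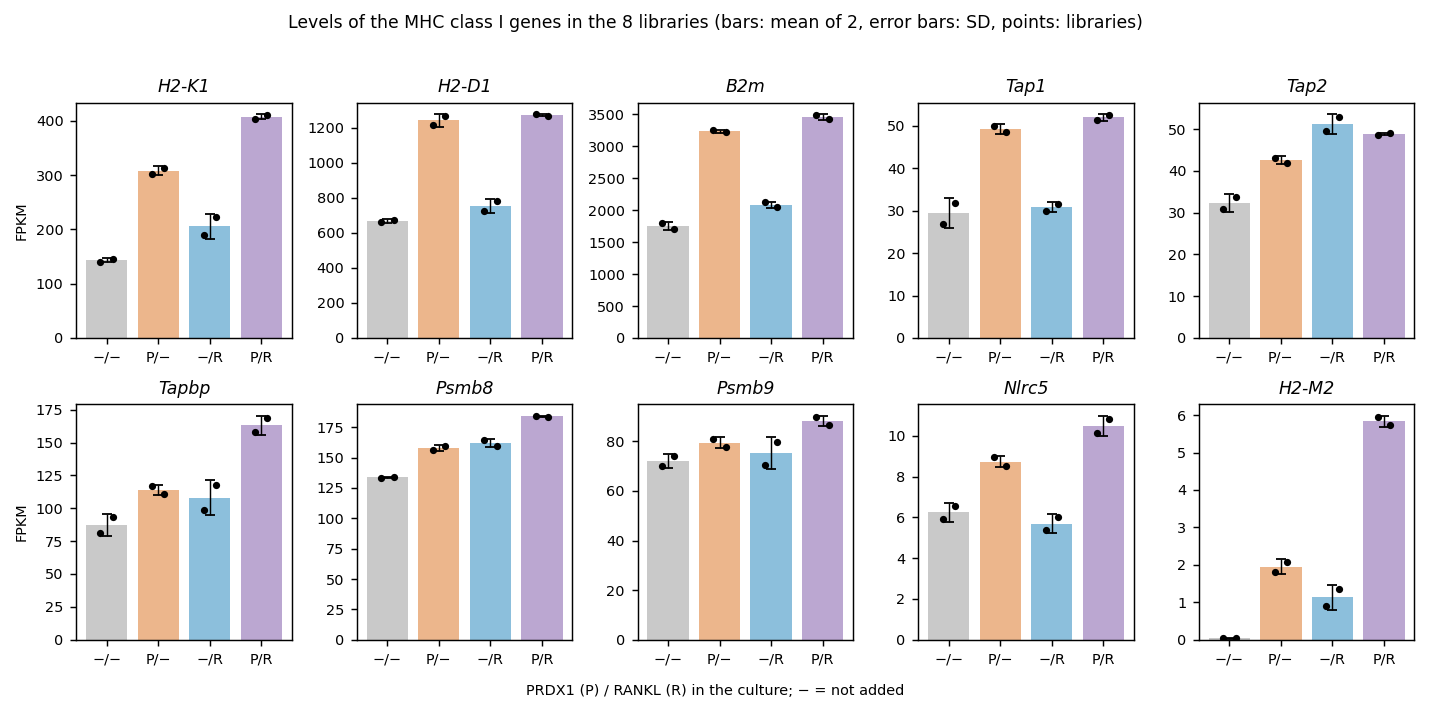
FPKM of each of the 10 genes in the 4 groups, with bars for the mean of 2 libraries, error bars for the SD and points for the libraries. P and R stand for PRDX1 and RANKL in the culture, and the bars with PRDX1 are higher than their counterparts for all genes but *Tap2* with RANKL.

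The classical heavy chain *H2-K1* was at 140 and 146 FPKM in no PRDX1 + no RANKL, 302 and 314 in PRDX1 + no RANKL, 190 and 223 in no PRDX1 + RANKL, and 404 and 412 in PRDX1 + RANKL. None of these groups overlapped, and the libraries with PRDX1 took the upper places. PRDX1 raised it 2.14-fold without RANKL (log2 fold change 1.10, SE 0.067, limma adjusted p = 2.22e-06) and 1.98-fold with RANKL (0.99, SE 0.067, adjusted p = 2.05e-06). RANKL on its own gave 1.43-fold (0.52, adjusted p = 8.20e-05), which is below the fold limit. It passed at 0.63 when no PRDX1 + RANKL replicate 1 was left out.

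*H2-D1*, the other classical heavy chain, had higher FPKM than *H2-K1* in every library. Class I genes differ between mouse strains in sequence, and with the strain unclear the effect of this on how reads were assigned, and so on these levels and the *H2-K1* to *H2-D1* ratio, was not tested. *H2-D1* stood at 661 and 676 FPKM in no PRDX1 + no RANKL, 1215 and 1269 in PRDX1 + no RANKL, 724 and 782 in no PRDX1 + RANKL, and 1276 and 1269 in PRDX1 + RANKL. The PRDX1 groups with and without RANKL lay next to each other at the top, well apart from the others. The change by PRDX1 was 1.86-fold without RANKL (0.89, SE 0.046, adjusted p = 6.97e-07) and 1.69-fold with it (0.76, SE 0.046, adjusted p = 1.01e-06). RANKL gave log2 differences of 0.17 without PRDX1 and 0.04 with it, neither called. Scaling moved these values in both directions, to 0.0019 and 0.3083 under quantile normalization, while the second was -0.02 under upper quartile scaling and -0.05 with limma-voom. The *H2-D1* interaction of PRDX1 and RANKL, -0.13 (adjusted p = 0.171), was 0.3064 under quantile normalization (adjusted p = 0.00567), so its direction depends on the scaling. The RefSeq gene *H2-L* overlaps 3608 bases of the *H2-D1* span and had 716 and 1311 FPKM (means without RANKL) where *H2-D1* had 669 and 1242, and how reads that fit both were counted was not given in the sources used here.

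*B2m*, the light chain shared by all class I molecules, ranked 9th of 25124 genes by mean FPKM in no PRDX1 + no RANKL and 5th in PRDX1 + RANKL. Its values were 1805 and 1713 FPKM in no PRDX1 + no RANKL, 3250 and 3222 in PRDX1 + no RANKL, 2122 and 2051 in no PRDX1 + RANKL, and 3495 and 3423 in PRDX1 + RANKL. The 4 groups were separate, in the same order as for *H2-K1*. PRDX1 raised *B2m* 1.84-fold without RANKL (0.88, SE 0.040, adjusted p = 3.81e-07) and 1.66-fold with RANKL (0.73, SE 0.040, adjusted p = 5.69e-07). The second value dropped to 0.58, just under the fold limit, after quantile normalization. RANKL gave 1.19-fold without PRDX1 and 1.07-fold with it.

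The ratio of *H2-K1* plus *H2-D1* to *B2m* had means of 0.462 in no PRDX1 + no RANKL, 0.479 in PRDX1 + no RANKL, 0.460 in no PRDX1 + RANKL and 0.486 in PRDX1 + RANKL, with libraries from 0.430 to 0.491 and overlapping groups. The ratio of *H2-K1* to *H2-D1* was 0.212 and 0.216 in no PRDX1 + no RANKL, 0.249 and 0.248 in PRDX1 + no RANKL, 0.262 and 0.285 in no PRDX1 + RANKL, and 0.317 and 0.324 in PRDX1 + RANKL, with no overlap between groups. The ratios were not part of the fit across genes, and an exact two-sided permutation test of 2 libraries against 2 cannot go below p = 0.333, so they are given as descriptions without a test.

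**Figure D3:**
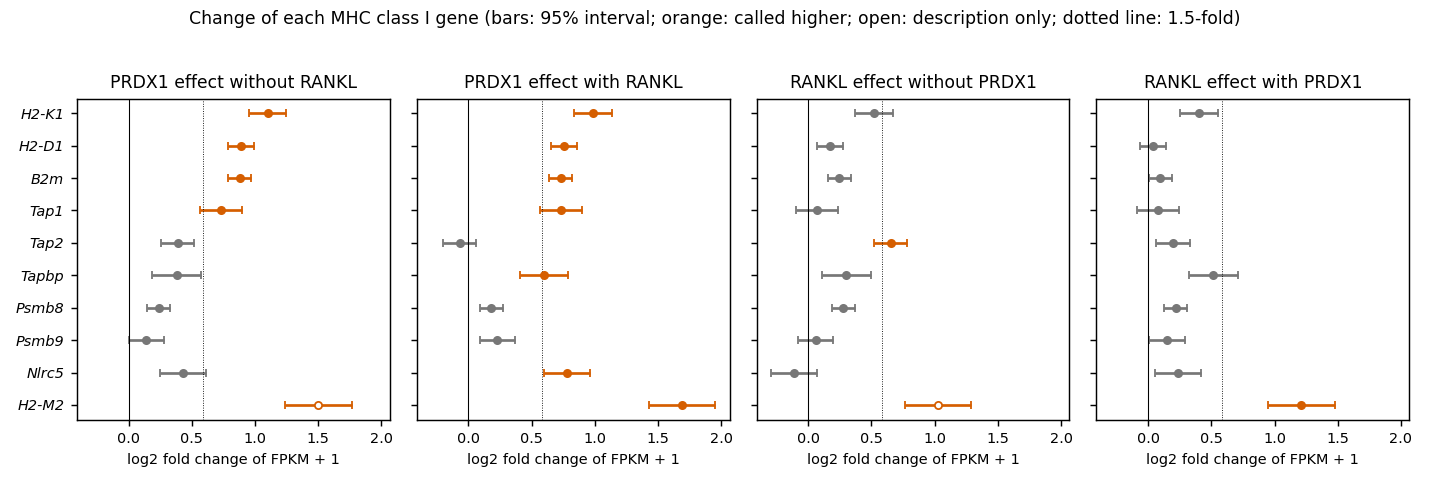
Log2 fold change of FPKM + 1 for each of the 10 genes in the 4 comparisons, with 95% intervals from limma, orange for genes called higher and a dotted line at 1.5-fold. Open points mark *H2-M2* against no PRDX1 + no RANKL, a description only, and beside *H2-M2* the PRDX1 panels show 4 and 6 orange genes and the RANKL panels 1 and 0.

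The subunits of the peptide transporter had different patterns. *Tap1* was at 26.9 and 31.9 FPKM in no PRDX1 + no RANKL, 50.01 and 48.4 in PRDX1 + no RANKL, 30.0 and 31.7 in no PRDX1 + RANKL, and 51.4 and 52.6 in PRDX1 + RANKL. The groups without PRDX1 overlapped each other and lay below all PRDX1 libraries. PRDX1 raised it 1.66-fold without RANKL (0.73, SE 0.075, adjusted p = 6.95e-05) and 1.67-fold with RANKL (0.74, SE 0.075, adjusted p = 3.19e-05), and RANKL moved it by 0.07 without PRDX1 (adjusted p = 0.435, 95% interval -0.10 to 0.24), a difference that fell on the other side of 0 with limma-voom (-0.03).

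*Tap2* instead was 30.8 and 33.8 FPKM in no PRDX1 + no RANKL, 43.2 and 41.8 in PRDX1 + no RANKL, 49.6 and 53.0 in no PRDX1 + RANKL, and 48.6 and 49.04 in PRDX1 + RANKL. It was the only one of the 10 whose highest group was RANKL without PRDX1. RANKL raised *Tap2* 1.57-fold without PRDX1 (0.65, SE 0.059, adjusted p = 6.24e-06). That call ended at 0.58 under quantile normalization and at 0.57 with limma-voom, both just under 1.5-fold. PRDX1 gave 1.31-fold without RANKL (0.39, adjusted p = 8.91e-04), under the fold limit, and 0.954-fold with it (-0.07, adjusted p = 0.381, 95% interval -0.20 to 0.06). The PRDX1 effect on *Tap2* was smaller in the presence of RANKL by 0.46 on the log2 scale (SE 0.083, interaction adjusted p = 0.00336), the one interaction of the 10 genes with an adjusted p below 0.05 under this scaling. GENCODE exons of *Tap2* share 698 bases with *Gm15821* and *Gm20496*. The ratio of *Tap1* to *Tap2* was 0.873 and 0.945 in no PRDX1 + no RANKL, 1.16 in both libraries of PRDX1 + no RANKL, 0.604 and 0.598 in no PRDX1 + RANKL, and 1.06 and 1.07 in PRDX1 + RANKL.

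*Tapbp*, which encodes tapasin, was at 81.4 and 93.4 FPKM in no PRDX1 + no RANKL, 117 and 111 in PRDX1 + no RANKL, 98.4 and 117 in no PRDX1 + RANKL, and 158 and 168 in PRDX1 + RANKL. PRDX1 alone and RANKL alone overlapped, with the group lacking both agents below them and the group given both above. PRDX1 raised it 1.51-fold with RANKL (0.60, SE 0.086, adjusted p = 3.65e-04), a call that rested on single libraries and was lost at 0.47 without no PRDX1 + RANKL replicate 1 and at 0.55 without PRDX1 + RANKL replicate 2. Without RANKL the value was 1.30-fold (0.38, adjusted p = 0.00836). Its GENCODE exons share 1053 bases with *Gm19412* and *Zbtb22*.

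The immunoproteasome subunits were not called in either PRDX1 comparison. *Psmb8* was at 133 and 134 FPKM in no PRDX1 + no RANKL, 156 and 160 in PRDX1 + no RANKL, 165 and 160 in no PRDX1 + RANKL, and 185 and 184 in PRDX1 + RANKL. All its PRDX1 libraries were above their counterparts, but by 1.18-fold (0.24, adjusted p = 0.0017) without RANKL and 1.13-fold (0.18, adjusted p = 0.00511) with it. *Psmb9* was at 70.1 and 74.1 FPKM, 81.0 and 77.9, 70.6 and 79.8, and 89.8 and 86.6 in the same order of groups. Its first 3 groups overlapped in part. PRDX1 gave it 1.10-fold without RANKL (0.14, adjusted p = 0.127) and 1.17-fold with RANKL (0.23, adjusted p = 0.0141). Although *Psmb9* and *Tap1* start 225 bases apart, the log2 differences by PRDX1 were 0.14 and 0.73 without RANKL. GENCODE exons of the pair overlap over 212 bases on opposite strands, and the strandedness of the libraries was not given in the sources used here. *Psmb8* shares 16.6% of its 100-base windows with a readthrough transcript.

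*Psmb8*, *Psmb9* and *Psmb10* take the places of *Psmb5*, *Psmb6* and *Psmb7* in the immunoproteasome. Without RANKL the ratio of *Psmb8* to *Psmb5* was 1.88 and 1.94, and with PRDX1 2.01 and 2.23. RANKL alone brought it to 1.597 and 1.505, and PRDX1 + RANKL to 2.22 and 2.15. The ratio of *Psmb10* to *Psmb7* followed with 0.474 and 0.526, 0.539 and 0.508, 0.273 and 0.279, and 0.448 and 0.430 in the same order. That of *Psmb9* to *Psmb6* was 0.482 and 0.529, 0.536 in both, 0.445 and 0.517, and 0.647 and 0.643. In each case the libraries with RANKL alone were the lowest or overlapped the lowest, and those with both agents lay above them. Among the constitutive partners, *Psmb7* was at 206 and 207 FPKM with RANKL alone and at 137 and 127 FPKM in no PRDX1 + no RANKL.

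**Figure D4:**
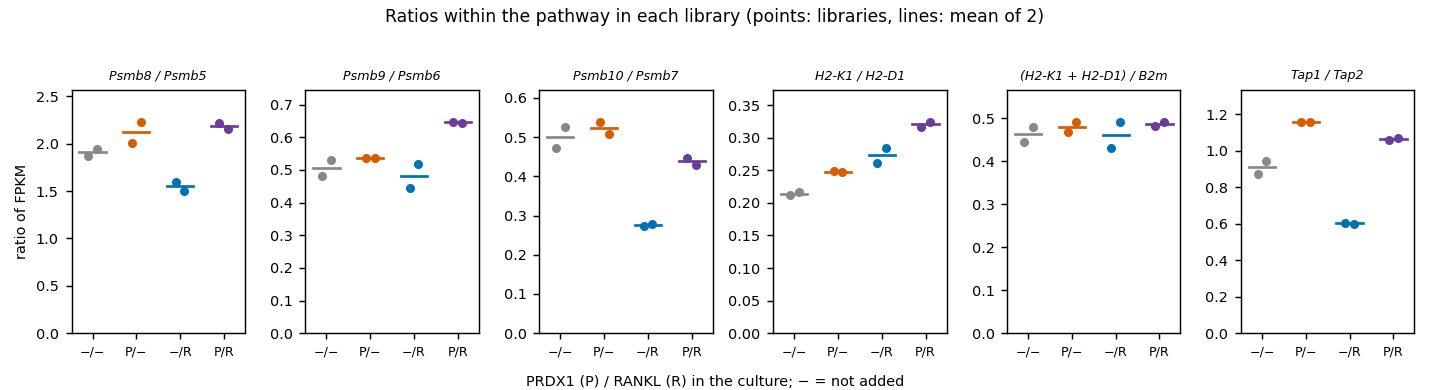
Ratios of FPKM within the pathway, by library (points) and group mean (lines), each panel starting at 0. With RANKL alone the *Tap1* to *Tap2* ratio is 0.598 to 0.604 and the *Psmb10* to *Psmb7* ratio 0.273 to 0.279, below all other libraries.

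*Nlrc5*, the class I transactivator, had low levels, with 5.92 and 6.57 FPKM in no PRDX1 + no RANKL, 8.94 and 8.54 in PRDX1 + no RANKL, 5.38 and 6.01 in no PRDX1 + RANKL, and 10.13 and 10.8 in PRDX1 + RANKL. The groups without PRDX1 overlapped and all PRDX1 libraries were higher. PRDX1 raised it 1.72-fold with RANKL (0.78, SE 0.081, adjusted p = 3.80e-05). Without RANKL the difference was 1.35-fold (0.43, SE 0.081, adjusted p = 0.00323), short of the fold limit. The difference between these effects was 0.35 (adjusted p = 0.0514).

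*H2-M2* was the rarest of the 10. It had 0.047 and 0.034 FPKM in no PRDX1 + no RANKL, which is 2 reads in each library, 1.81 and 2.09 FPKM in PRDX1 + no RANKL (81 and 105 reads), 0.900 and 1.36 in no PRDX1 + RANKL (35 and 67 reads), and 5.94 and 5.72 in PRDX1 + RANKL (391 and 342 reads). It passed the level filter through its treated groups. All 4 groups were separate and the combination stood highest. The read share was 49.8 times higher with PRDX1 than without in the absence of RANKL (exact 95% interval 19.1 to 185), 29.4 times higher with RANKL alone (11.2 to 110), and 5.04 times higher with PRDX1 in the presence of RANKL (4.10 to 6.27), intervals that cover counting error only. On the log2(FPKM + 1) scale, which shrinks changes of low genes, PRDX1 gave 1.69 with RANKL (adjusted p = 2.55e-06) and RANKL gave 1.21 with PRDX1 (adjusted p = 3.26e-05). The differences from no PRDX1 + no RANKL, 1.502 for PRDX1 and 1.03 for RANKL, are given as descriptions, because the gene passed the level filter only through groups where it is high. The interaction depended on the scale, with 0.19 (adjusted p = 0.477) here, -1.57 at a pseudocount of 0.1 and -2.94 with limma-voom, so its sign is not fixed by these values.

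No interaction of PRDX1 and RANKL was called by limma among the 10 genes, beside 8.85% of all genes (4.5% with a positive and 4.35% with a negative difference). At an unadjusted p below 0.05 there were 3, negative for *B2m* and *Tap2* and positive for *Nlrc5*, beside 34.9% of all genes, and limma-voom called none of the 9 other than *H2-M2*. Under quantile normalization the adjusted p was below 0.05 for *Tap2*, *B2m* and *H2-D1*, the last with the opposite sign.

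The other genes of the pathway, a list of 65 of which 60 passed the level filter, are described by role. PRDX1 raised 13 and lowered 1 without RANKL, where 3.8% of all genes were called higher and 1.99% lower, and raised 21 and lowered 0 with RANKL, where the shares were 6.03% and 4.17%. Of these, 12 of the 13 raised without RANKL and 16 of the 21 raised with it were heavy chains, as was the one lowered. Of 23 other class I heavy chain genes 18 passed the filter, and *H2-T3*, *H2-M1*, *H2-M5*, *H2-M9* and *H2-M10.1* were at 0 in all libraries. PRDX1 raised 12 of the 18 and lowered 1 without RANKL (median log2 fold change 0.73), and raised 16 with RANKL (median 0.94). Genes of the Q region, which encode nonclassical chains related to the classical ones, had the widest differences. *H2-Q7* was at 4.97 and 4.48 FPKM in no PRDX1 + no RANKL and at 27.2 and 20.2 FPKM in PRDX1 + no RANKL (log2 fold change 2.10, adjusted p = 5.51e-06), with 13.9 and 18.6 in no PRDX1 + RANKL and 42.1 and 39.1 in PRDX1 + RANKL (1.28, adjusted p = 6.83e-05). *H2-Q9* gave 2.08 and 1.25, *H2-Q8* 1.52 and 1.41, and *H2-Q6* 1.47 and 1.44. *H2-Q7* with *H2-Q9*, and *H2-Q6* with *H2-Q8*, are close copies with nearly parallel values, as are *H2-T9* and *H2-T22*, whose spans overlap by 4284 bases, so these pairs do not count as separate evidence. Nor does *H2-L*, counted among the 18, whose span overlaps that of the member *H2-D1* by 3608 bases and whose values ran parallel to it. *H2-T10* shares some 100-base windows with *H2-T22*.

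*H2-T23*, which encodes Qa-1, a ligand of NK cell receptors, went from 109 and 112 FPKM to 212 and 218 with PRDX1 (0.96, adjusted p = 2.62e-07), and from 90.3 and 92.6 to 188 and 191 in cultures given RANKL (1.04, adjusted p = 5.76e-08). *H2-Q10*, whose product is known as a secreted chain of the liver, was the one pathway gene called lower in these comparisons. It was at 3.78 and 2.91 FPKM without and 1.46 and 1.74 with PRDX1 in the absence of RANKL (-0.74, adjusted p = 0.00176), and with RANKL the difference was -0.44 (adjusted p = 0.0169), not called. PRDX1 called 4 further chains in cultures given RANKL and not in those without. These were *H2-M3*, which presents formylated peptides (0.37 without and 0.92 with RANKL, interaction adjusted p = 0.00217), *H2-T24* (0.34 and 0.73, 0.00875), *Mr1*, which presents vitamin B metabolites (0.24 and 0.82, 0.00907), and *Cd1d1*, which presents lipids (0.09 and 0.70, 0.0135). They were named after their values were seen. RANKL alone gave log2 fold changes of -0.99, -1.59 and -1.52 for *H2-M3*, *Mr1* and *Cd1d1*, all called lower. *Mr1* was at 8.52 and 8.63 FPKM in no PRDX1 + no RANKL and 1.99 and 2.36 in no PRDX1 + RANKL, and PRDX1 + RANKL lay between at 4.65 and 4.56.

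**Figure D5:**
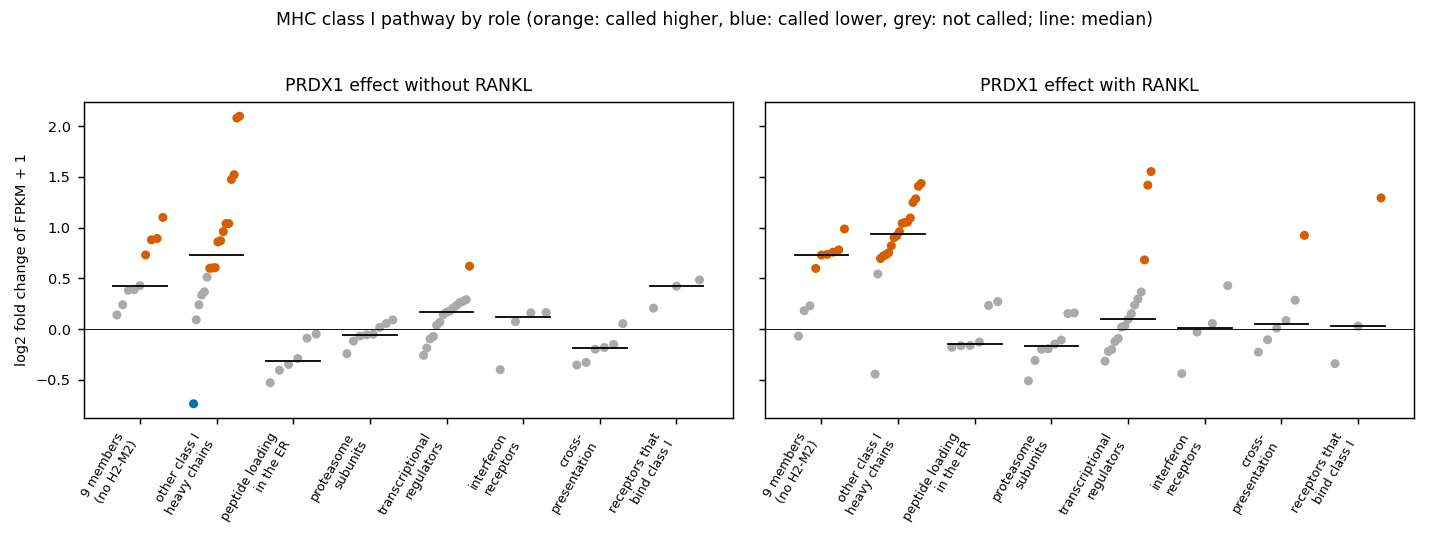
Log2 fold change of FPKM + 1 by PRDX1 for each tested gene, by role, without RANKL (left) and with RANKL (right), with orange for called higher, blue for called lower, grey for not called and a line at the median. The heavy chains have medians of 0.73 and 0.94, while the medians of peptide loading genes are -0.32 and -0.14.

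Of 6 chaperones and other factors that fold and load class I molecules, limma and limma-voom called none in either PRDX1 comparison, a count near the share of all genes (5.79% and 10.2% called by limma). At an unadjusted p below 0.05 there were 4 without RANKL, all with lower values, and 6 with RANKL, 4 with lower and 2 with higher values, where 39.8% and 50.2% of all genes had such a p. *Hspa5*, the general chaperone BiP, was at 735 and 748 FPKM in no PRDX1 + no RANKL and 512 and 515 in PRDX1 + no RANKL (-0.53, adjusted p = 1.61e-05, under the fold limit, and called at -0.64 after quantile normalization). *Pdia3*, the ERp57 of the loading complex, went from 447 and 461 to 337 and 348 FPKM (-0.41, adjusted p = 1.18e-04), and *Canx*, calnexin, had -0.35 (adjusted p = 5.21e-04). With RANKL the widest differences were 0.27 for *Erap1*, the peptide-trimming aminopeptidase, 0.23 for *Tapbpl* and -0.18 for *Pdia3*. Among 8 other proteasome genes limma and limma-voom called 0, a count also near that share. At an unadjusted p below 0.05 there were 2 of the 8 without RANKL, 2 of them lower, beside 39.8% of all genes. With RANKL there were 8 of the 8, 6 of them lower, beside 50.2% of all genes. *Psmb7* had -0.51 (adjusted p = 1.53e-05) and *Psmb5* -0.31 (adjusted p = 8.82e-04) in the presence of RANKL, and -0.12 and 0.09 in its absence, while *Pomp*, the assembly factor, had -0.24 and -0.20.

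Of 15 transcriptional regulators PRDX1 raised 1 without RANKL, near the 3.8% of all genes, and 3 with it, against 6.03%. *Stat2*, which carries signals of type I interferon, was at 27.4 and 34.4 FPKM in no PRDX1 + no RANKL, 48.1 and 47.3 in PRDX1 + no RANKL, 13.1 and 14.5 in no PRDX1 + RANKL, and 37.9 and 39.1 in PRDX1 + RANKL. Its change was 0.62 without RANKL (adjusted p = 7.71e-04), lost at 0.46 without no PRDX1 + no RANKL replicate 1, and 1.42 with RANKL (adjusted p = 1.55e-06). *Irf8*, a macrophage and dendritic cell factor, was at 47.8 and 50.3, 59.5 and 59.4, 7.77 and 7.72, and 23.9 and 25.4 FPKM in the same order (0.27, adjusted p = 0.00462, without RANKL and 1.55, adjusted p = 2.72e-08, with it). *Rela* and *Nfkb1*, which encode NF-kB subunits, differed by 0.07 and -0.10 without RANKL (adjusted p = 0.479 and 0.245) and are given after their values were seen. These are mRNA levels and do not measure NF-kB activity. For p65, the product of *Rela*, the study reported a stable protein level in whole cells and a rise in the nucleus with PRDX1.

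None of the 4 interferon receptor genes was called by limma or limma-voom in the PRDX1 comparisons (3 and 2 at an unadjusted p below 0.05), and with 5.79% and 10.2% of all genes called a count of 0 of 4 says little about them. *Ifngr1* had -0.40 and -0.44 (adjusted p = 6.67e-04 and 1.95e-04), *Ifnar2* 0.16 and 0.43, *Ifngr2* 0.16 and -0.03 (the latter above 0 under other scalings) and *Ifnar1* 0.07 and 0.06. Among 6 cross-presentation genes PRDX1 raised *Cybb*, the NADPH oxidase chain gp91phox, with RANKL (0.92, adjusted p = 5.69e-07, at 91.2 and 83.8 FPKM without and 164 and 170 with PRDX1, beside 0.05 without RANKL). *Rab27a* had -0.35 and 0.28, *Wdfy4* -0.33 and 0.08, *Lnpep* -0.20 and -0.11, and *Sec22b* -0.18 and -0.23. Of 3 myeloid receptors that bind class I molecules or relatives of those receptors, *Lilrb4a*, an inhibitory one, was raised with RANKL (1.29, adjusted p = 1.80e-07, at 158 and 142 FPKM without and 380 and 359 with PRDX1) and had 0.48 without. *Pirb* had 0.42 and 0.03, and *Pira2* 0.21 and -0.34.

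Over the 8 libraries the genes most like *H2-K1*, outside the lists above and among 3889 genes whose group means differed by at least 1.5-fold, were *Gm11127*, itself annotated in the MHC on chromosome 17 (Pearson r = 0.997 of log2 values), *Dusp4*, a MAP kinase phosphatase (0.995), *H2-Eb1*, an MHC class II chain (0.993), *Hspa1b*, a heat shock protein (0.990), and *Carmil1* (0.987). Those most like *H2-M2* were *Slc7a2*, an arginine transporter (0.989), *Ccr7*, a chemokine receptor of mature dendritic cells (0.989), *H2-K2* (0.988), *Hvcn1*, a proton channel (0.987), and *Acp2*, a lysosomal phosphatase (0.981). The points share 4 groups of 2 libraries, so these values mostly compare group means. *Ccr7* was at 0.070 and 0.050 FPKM in no PRDX1 + no RANKL and 2.12 and 2.56 in PRDX1 + RANKL. *Dusp4* had means of 11.5, 21.9, 16.4 and 27.4 FPKM in the order used above, which is the order of *H2-K1*.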

How the data were processed

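Total RNA of 8 cultures was sequenced as 100-base read pairs. Per the labels and the study's methods the authors used HISAT2, mm10, HOMER and DESeq2, versions not given in the sources used here, and deposited one table of FPKM per gene. Each deposited FPKM times its transcript length gave whole reads for all genes checked (tolerance 0.1 read), 24542578 to 41712973 reads on genes per library. Libraries were compared by limma 3.58.1 (R 4.3.3) on log2(FPKM + 1) with an intensity trend, 1 model of 4 groups, mean FPKM of at least 0.5, and Benjamini-Hochberg adjustment over 11700 genes, after a test on simulated data. The thresholds, adjusted p below 0.05 and 1.5-fold, follow the study's methods. Members and lists were chosen with earlier results of these data known. Named were all members, in each role the 3 genes with the largest change by PRDX1 in each comparison, and the 5 genes most correlated with *H2-K1* and *H2-M2*, except 1 gene that is counted but not reported here. Alternatives were another pseudocount (0.1), no level filter, quantile normalization, upper quartile scaling, limma-voom on recovered reads, no fold limit, a replicate block and leaving out each library. Promoters came from RefSeq (GRCm38.p6) and exons from GENCODE. Replicates differed beyond sampling noise (chi-square per degree of freedom 4.71 to 9.58).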

Additional observations from a re-analysis of the deposited data

Results flagged for a closer look

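For 18 of 36 members and pathway genes named by rule (50%), the change by PRDX1 differed with and without RANKL at a limma interaction adjusted p below 0.05, whatever the size, as it did for 2707 of all genes (23.1%). The pathway genes were named for a large change in one of these comparisons, which favours a difference between them. Values are the effect with RANKL minus the effect without, on the log2 scale, with the adjusted p in parentheses. Among the members this held for *Tap2*, with -0.46 (0.00336). The signed difference was positive for *Irf8* with 1.28 (3.81e-06), *Cybb* with 0.87 (2.66e-05), *Lilrb4a* with 0.81 (1.27e-04), *Stat2* with 0.80 (0.00174), *Rab27a* with 0.64 (0.00898), *Wdfy4* with 0.41 (0.0335), *Erap1* with 0.36 (0.0129) and *Ifnar2* with 0.27 (0.0321). It was also positive for *Hspa5* with 0.37 (0.00199), *Pdia3* with 0.23 (0.0291) and *Canx* with 0.22 (0.0432), whose negative values were nearer 0 with RANKL. The signed difference was negative for *H2-Q9* with -0.83 (0.0104), *H2-Q7* with -0.81 (0.0177) and *Pirb* with -0.39 (0.00519), whose positive values were smaller with RANKL, for *Pira2* with -0.55 (0.0377) and *Psmb5* with -0.40 (0.00332), whose values were positive without and negative with RANKL, and for *Psmb7* with -0.39 (0.00199), whose negative value was farther from 0 with RANKL. Without the level filter the adjusted p of *H2-Q7* and *H2-Q9* were 0.0864 and 0.0611. That of *H2-Q7* was also 0.0584 without no PRDX1 + no RANKL replicate 2, 0.0545 without PRDX1 + no RANKL replicate 1 and 0.0614 without PRDX1 + RANKL replicate 2.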

How the results depend on the processing

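Leaving out *H2-M2*, 4 of 9 members (PRDX1 without RANKL) and 5 to 6 of 9 (PRDX1 with RANKL) were called under another pseudocount, no level filter, both scalings and limma-voom. The counts of members that follow include *H2-M2*. Without a fold limit 9, 9, 7, 6 and 1 members were called (PRDX1 without and with RANKL, RANKL without and with PRDX1, interaction), 35, 44, 43, 35 and 25 pathway genes, and 3484, 4977, 7012, 4748 and 2707 of all genes. RANKL called 1 member under quantile normalization and 1 with limma-voom. The interaction called 1 (*H2-M2*) at a pseudocount of 0.1 and 1 with limma-voom, and 5 pathway genes without the level filter. Replicate numbers did not pair the samples (correlation of deviations 0.008 to 0.096), and with a replicate block the members called were 5, 7, 2, 1 and 0 and all genes called 676, 1192, 2551, 994 and 1042.

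These log2 fold changes changed sign. PRDX1 with RANKL gave 0.0142 for *Hspa5* and 0.0050 for *Canx* (quantile), and 0.0612, 0.0201 and 0.0369 for *Ifngr2* (quantile, upper quartile, voom). RANKL without PRDX1 gave -0.0041 and -0.0316 for *Tap1* and -0.0027 and -0.0290 for *Sec22b* (quantile, voom) and -0.0082 and -0.0381 for *Psmb9* (upper quartile, voom). RANKL with PRDX1 gave -0.0197 and -0.0462 for *H2-D1* (upper quartile, voom), -0.0031 for *Tap1* (voom), and -0.0221, -0.0298 and -0.0560 for *Sec22b* and -0.0047, -0.0155 and -0.0420 for *Erap1* (quantile, upper quartile, voom). The interaction gave 0.3064 for *H2-D1* (adjusted p = 0.00567 with limma), 0.0228 for *Psmb8* and 0.0065 for *H2-Q6* (quantile), and -1.5701 and -2.9433 for *H2-M2* (pseudocount 0.1, voom). The cause was not tested.

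Leaving out 1 library at a time, these ranges crossed 0. PRDX1 without RANKL gave *Tapbpl* -0.1220 to 0.0246. PRDX1 with RANKL gave *Wdfy4* -0.0078 to 0.1768, *Lnpep* -0.2988 to 0.0886, *Pirb* -0.0324 to 0.0916 and *Ifngr2* -0.0828 to 0.0245. RANKL without PRDX1 gave *Tap1* -0.0489 to 0.1913, *Psmb9* -0.0294 to 0.1454 and *Lnpep* -0.0863 to 0.3011. RANKL with PRDX1 gave *Sec22b* -0.0023 to 0.0490 and *Canx* -0.0660 to 0.0032. The interaction gave *H2-K1* -0.2284 to 0.0021, *Tap1* -0.1148 to 0.1254, *Lnpep* -0.1003 to 0.2871, *H2-Q6* -0.0923 to 0.0141, *Ifngr1* -0.1116 to 0.0327 and *Ifnar1* -0.0479 to 0.0117.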
